A study of Homo sapiens with 2 samples.

Results

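The solute carrier (SLC) genes that were well expressed in H2228 cells were compared between cells given interleukin 4 (IL4) and untreated cells. Genes with a symbol of SLC and a digit were taken, except antisense genes ending in -AS1 or -AS2, from probe sets that name 1 gene only. Each gene was read from its brightest probe set, by the mean of both arrays. Genes with a mean log2 value of at least 7 were kept, which gave 121 of 357 SLC genes, among 7249 genes at or above that level and 19775 genes in all. The genes were thus selected on their mean level over both arrays, and that level is given as a description only. The difference between the arrays did not choose them, although a large difference can lift a mean over the level. One array lay below 7 for 7 of the 121 genes, the untreated array for 5 of them and the IL4 array for 2. Among the genes called higher or lower below, SLC2A6 and SLC31A2 were under 7 in untreated cells and SLC16A14 was under 7 with IL4. These genes passed the level only through the array where they were high.

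The cell line H2228 comes from a human lung adenocarcinoma and has an EML4-ALK fusion, and IL4 is a cytokine that signals through JAK kinases and STAT6. The treated cells received IL4 at 100 ng/mL for 30 min, and the untreated cells received no agent. RNA from each was measured on 1 Affymetrix U133 Plus 2.0 array. The labels of both samples also mention transfection with EML4-ALK plasmids, siRNAs or negative controls for 48 h, and whether these cells were transfected is not given in the sources used here. With 1 array per condition there was no replicate, no test and no error between cultures, so every value below compares 2 arrays. Differences are log2 values with IL4 minus log2 values in untreated cells, and genes that differed by 1.5-fold or more are called higher or lower. In RNA from a whole culture, fewer cells of a kind and less RNA per cell cannot be told apart.

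Solute carriers are membrane proteins that move small molecules down a gradient or by coupling them to ions or to a second substrate, without splitting ATP themselves. Those of the cell surface take up amino acids, sugars, ions and vitamins, those of the mitochondrial SLC25 family move metabolites across the inner membrane, and those of the Golgi SLC35 family bring in nucleotide sugars for glycosylation. Zinc is handled by a pair of families. SLC39 (ZIP) carriers bring zinc into the cytosol, and SLC30 (ZnT) carriers take it out of the cytosol, across the cell surface or into organelles. Metallothioneins bind zinc in the cytosol, and the transcription factor MTF1 switches on metallothionein genes and SLC30A1 through metal response elements when zinc rises.

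The promoters of 4 genes are shown because these genes had the highest and the lowest difference among the 121 genes and within the zinc carriers. They are SLC2A6 and SLC16A14 over all genes, and SLC30A1 and SLC30A6 among zinc carriers. Each is the 250 bases before the first start listed in RefSeq, on assembly GRCh38.p14, read 5′ to 3′ on the strand of the gene. SLC2A6 lies at chr9:133479100-133479349 on the minus strand, SLC16A14 at chr2:230068925-230069174 on the minus strand, SLC30A1 at chr1:211579162-211579411 on the minus strand and SLC30A6 at chr2:32165614-32165863 on the plus strand. Capitals mark the core of a metal response element, TGCACNC or TGCGCNC, which in all 4 is on the strand opposite to the gene.
SLC2A6: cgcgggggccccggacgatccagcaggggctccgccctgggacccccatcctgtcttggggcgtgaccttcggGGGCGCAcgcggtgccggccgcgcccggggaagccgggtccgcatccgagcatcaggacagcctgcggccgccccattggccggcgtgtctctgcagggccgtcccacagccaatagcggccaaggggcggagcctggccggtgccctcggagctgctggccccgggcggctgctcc
SLC16A14: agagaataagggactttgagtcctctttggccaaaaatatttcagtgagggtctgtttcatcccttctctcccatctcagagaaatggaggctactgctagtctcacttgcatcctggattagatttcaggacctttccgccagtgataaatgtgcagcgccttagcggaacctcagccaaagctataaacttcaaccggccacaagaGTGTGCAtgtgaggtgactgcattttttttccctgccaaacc
SLC30A1: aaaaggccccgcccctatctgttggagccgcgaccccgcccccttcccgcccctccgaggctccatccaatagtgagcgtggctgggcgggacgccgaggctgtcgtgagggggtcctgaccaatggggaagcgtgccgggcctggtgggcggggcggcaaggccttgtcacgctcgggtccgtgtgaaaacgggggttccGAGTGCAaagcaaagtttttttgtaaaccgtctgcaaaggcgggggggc
SLC30A6: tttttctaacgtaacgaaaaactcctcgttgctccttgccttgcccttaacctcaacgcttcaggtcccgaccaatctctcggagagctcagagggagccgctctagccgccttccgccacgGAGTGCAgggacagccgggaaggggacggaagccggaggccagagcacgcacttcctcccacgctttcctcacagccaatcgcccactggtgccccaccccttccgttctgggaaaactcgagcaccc
The match ended 171 bases before the start in SLC2A6, 36 bases before it in SLC16A14, 43 bases before it in SLC30A1 and 122 bases before it in SLC30A6. Searched on both strands, these letters were present in 24.7% of 27305 promoters of this length and in 32 of the 104 SLC genes with a listed promoter (30.8%). They were present in 5 of 14 zinc carriers (35.7%), in 3 of 10 genes higher with IL4 (SLC12A7, SLC22A4 and SLC2A6) and in 3 of 6 lower genes (SLC16A14, SLC25A40 and SLC30A6). Genes of either direction thus held the motif, and a match is a description of letters. The palindrome that STAT6 binds, TTC and GAA with 4 bases of any kind between them, was present in 5.35% of all promoters, in 1 of the 104 SLC genes and in 0 of the 16 changed genes with a promoter. The AP-1 motif TGAGTCA was present in 4.16% of all promoters and 3 of the 104, and the NF-kB motif in 5.05% and 7 of the 104. Neither was found in a changed gene.

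Of the 121 SLC genes, 11 (9.09%) were higher with IL4 by 1.5-fold or more and 6 (4.96%) were lower by as much. Among all 7249 genes of the same level, 5.46% were higher and 6.35% were lower, and over all 19775 genes 3.21% were higher and 4.39% were lower. At 2-fold, 4 SLC genes were higher (3.31%) and 1 was lower (0.826%), against 2.15% and 1.14% of the genes of that level. The difference was above 0 for 62 of the 121 genes and below 0 for 57, whereas 40.7% of genes of that level were above 0 and 58.7% below. Their median difference was 0.026, and the median over all genes of that level was -0.063. Set against that median, 73 of the SLC genes lay above it and 48 below. The middle 50% of the SLC genes lay between -0.18 and 0.24. Most carriers therefore differed little between the arrays.

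**Figure D1:**
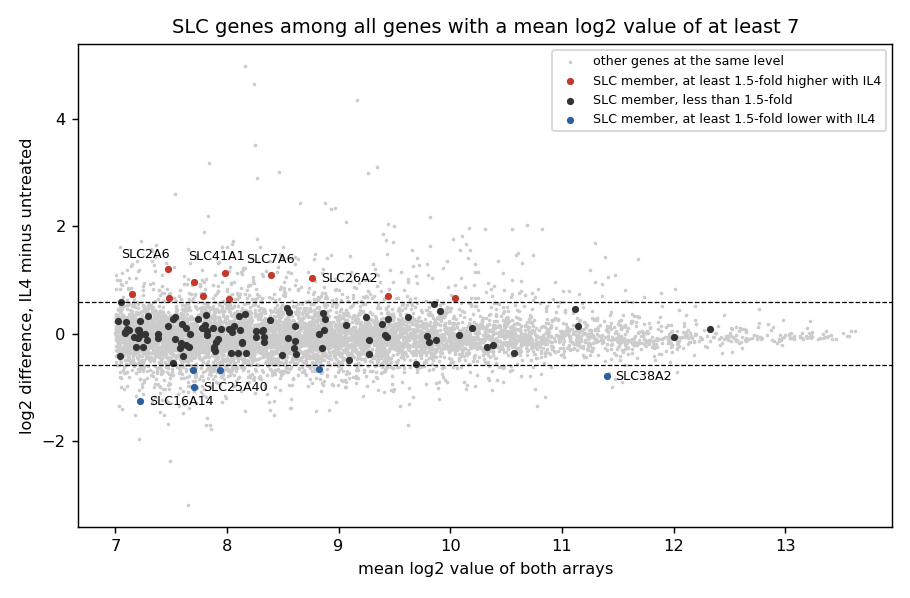
Log2 difference, IL4 minus untreated (y axis), against the mean log2 value of both arrays (x axis), 1 point per gene with a mean of at least 7. The 11 SLC genes higher with IL4 by 1.5-fold or more are red, the 6 lower ones blue, the remaining SLC genes black and other genes grey. Dashed lines mark 1.5-fold. SLC2A6 is the highest SLC gene (2.30-fold) and SLC16A14 the lowest (2.40-fold lower).

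SLC2A6, a glucose carrier relative (GLUT6) placed in lysosomes, had the largest increase, at 8.07 on the log2 scale with IL4 and 6.87 in untreated cells (2.30-fold higher). SLC41A1, a magnesium carrier of the cell surface, was at 8.54 with IL4 and 7.41 in untreated cells (2.19-fold higher). SLC7A6, which exchanges arginine for neutral amino acids, was at 8.94 with IL4 and 7.85 in untreated cells (2.12-fold higher). SLC26A2, the sulfate carrier, was at 9.28 with IL4 and 8.24 in untreated cells (2.05-fold higher). These were the 4 genes past 2-fold, and they carry 4 different kinds of substrate. At the other end, SLC16A14, a monocarboxylate carrier by family, had the largest decrease, at 6.59 with IL4 and 7.85 in untreated cells (2.40-fold lower). SLC25A40, a mitochondrial glutathione carrier, was at 7.21 with IL4 and 8.21 in untreated cells (just under 2-fold lower). SLC2A6, SLC41A1 and SLC16A14 each had 1 probe set, so no second measurement on the same arrays was at hand for them. SLC2A6 and SLC16A14 also lay below 7 on 1 array and passed the level through the other.

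**Figure D2:**
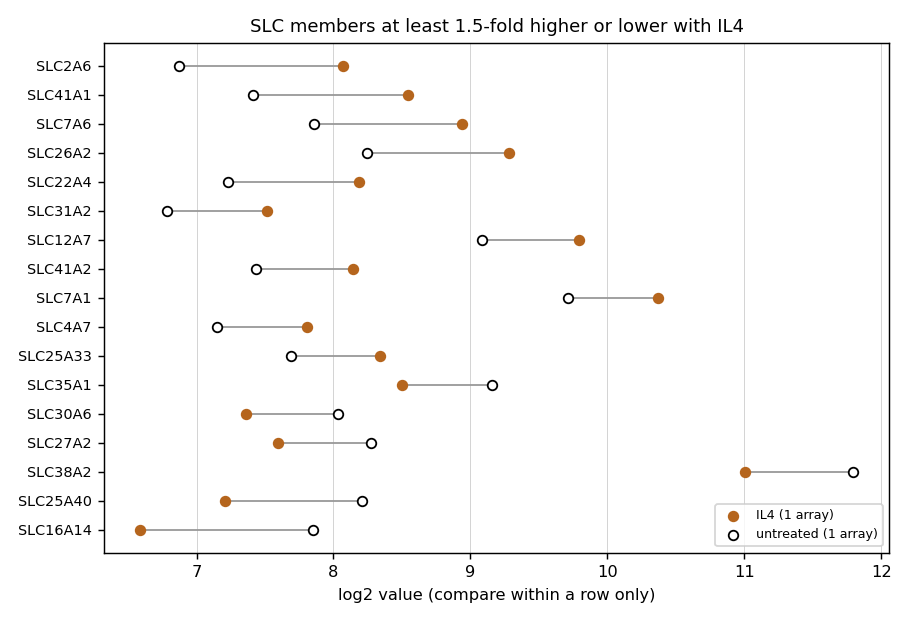
Log2 values with IL4 (filled circles) and in untreated cells (open circles), 1 array each, of the 17 SLC genes at least 1.5-fold different, ordered by their difference. Values are compared within a row only. The upper 11 genes have the filled circle to the right, the lower 6 to the left.

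Amino acid carriers were the second largest class by substrate, with 15 genes, 2 higher, 1 lower and a median difference of 0.15, which turned to -0.057 over the 9 genes left without probe sets that may bind several transcripts. The higher and lower genes were 13.3% and 6.67% of the class, against 5.46% and 6.35% of all genes of that level, whose median was -0.063. Besides SLC7A6, SLC7A1 was higher. SLC7A1, the carrier of arginine and lysine CAT1, was at 10.37 with IL4 and 9.71 in untreated cells (1.58-fold). SLC38A2 (SNAT2), which takes up small neutral amino acids with sodium, was lower, at 11.00 with IL4 and 11.80 in untreated cells (1.73-fold). The cationic amino acid carriers and SNAT2 thus differed in opposite directions. Its neighbour SLC38A1, a glutamine carrier and the next protein-coding gene on chromosome 12, was at 9.41 with IL4 and 9.46 in untreated cells. SLC7A11, which imports cystine in exchange for glutamate, was at 10.39 with IL4 and 10.75 in untreated cells. The leucine carrier SLC7A5 (LAT1) was at 9.58 with IL4 and 9.30 in untreated cells, and its partner SLC3A2, the heavy chain CD98, was at 8.68 with IL4 and 8.53 in untreated cells. The pair lay on the same side of 0, less than 1.5-fold apart between the arrays.

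By location, the 5 amino acid carriers of mitochondria had differences between -0.068 (SLC25A13, an aspartate and glutamate carrier) and 0.28 (SLC25A29, for basic amino acids), and 4 of them were above 0. The 3 of lysosomes were split. SLC36A1 was at 8.34 with IL4 and 7.97 in untreated cells, whereas SLC38A9, the lysosomal arginine sensor of the mTORC1 pathway, was at 7.91 with IL4 and 8.28 in untreated cells, and SLC36A4 had a difference of -0.26. None of these 8 genes reached 1.5-fold, where 5.46% of all genes of that level were higher and 6.35% lower. The glutamine carrier SLC1A5 had a mean of 6.26, below the level of 7.

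The class of iron, copper, magnesium, manganese and heme carriers held 9 genes, 3 of them higher and 0 lower, and its median was 0.24. Of all genes of that level, 5.46% were higher and 6.35% lower, and their median was -0.063. Both magnesium carriers of the class were among its 3 higher genes. SLC41A2 was at 8.14 with IL4 and 7.43 in untreated cells (1.63-fold higher), next to SLC41A1 at 2.19-fold. Averaged over its probe sets, SLC41A2 was at 0.50, short of 1.5-fold. SLC41A3, of the same family, had a mean of 6.67, below the level of 7, and a difference of 0.24. SLC31A2, a copper carrier of endosomes, was at 7.51 with IL4 and 6.78 in untreated cells (1.66-fold higher). It had 1 probe set and passed the level of 7 through the IL4 array. SLC31A1 (CTR1), which brings copper into the cell, was at 8.04 with IL4 and 8.22 in untreated cells. The pair of copper carriers thus lay on either side of 0 in the chosen probe sets. Dimmer probe sets of SLC31A1 had differences of 0 and 0.13, and the average over its probe sets was -0.015. Iron carriers had smaller differences in both directions. Ferroportin, SLC40A1, the exporter of iron from the cell, was at 7.24 with IL4 and 7.79 in untreated cells, a difference of -0.55 that stayed under 1.5-fold. The mitochondrial iron importers SLC25A37 and SLC25A28 had differences of 0.32 and 0.24, and the iron importer SLC11A2 (DMT1) had -0.17.

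Zinc carriers were the largest class, with 16 genes, 0 higher, 1 lower and a median of -0.083. Of these, 13 had a difference below 0 and 3 above 0. At 1.5-fold, 5.46% of all genes of that level were higher and 6.35% lower. The genes of that level lay below 0 in 58.7% of cases, and against their median of -0.063 the split was 7 zinc carriers above and 9 below. The split of the class thus differed with the zero point, and the median of the class was -0.020 after centring. Over the 11 zinc carriers left without probe sets that may bind several transcripts it was -0.26, against -0.062 over all genes of that level under the same restriction. Among the 6 SLC30 genes, SLC30A6, which takes zinc into the secretory pathway, was at 7.36 with IL4 and 8.04 in untreated cells (1.60-fold lower). SLC30A1 (ZnT1), the zinc exporter of the cell surface, was at 11.35 with IL4 and 10.89 in untreated cells, a difference of 0.46 that is 1.38-fold. Its second probe set of that level was at 8.82 with IL4 and 7.98 in untreated cells, a difference of 0.85. SLC30A7 and SLC30A9, which serve the Golgi and mitochondria, had differences of -0.33 and -0.27.

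Of the 10 SLC39 genes, 9 had a difference below 0, and 5 lay below the median of all genes of that level. The lowest was SLC39A10, at 9.41 with IL4 and 9.98 in untreated cells (-0.57, 1.48-fold), followed by SLC39A1 at -0.29 and SLC39A11 at -0.26. Another 6 lay between -0.093 and -0.001. SLC39A14 (ZIP14), a carrier of zinc, iron and manganese, was the exception, at 10.13 with IL4 and 9.70 in untreated cells. Among zinc carriers, SLC30A1 and SLC39A14 had the highest differences, both under 1.5-fold in the chosen probe set. Averaged over its probe sets with a mean of at least 7, SLC30A1 was at 0.65, past 1.5-fold, while SLC39A14 was at 0.13 over all 3 of its probe sets, of which the other two were dim.

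The metallothionein genes, taken from a list of 33 partners and regulators of carriers, had far larger differences than any zinc carrier. MT1E was at 11.01 with IL4 and 9.20 in untreated cells (3.52-fold higher), MT1X at 10.91 with IL4 and 9.14 in untreated cells (3.39-fold higher). MT1F was at 10.43 with IL4 and 8.87 in untreated cells (2.95-fold higher), and MT2A at 12.10 with IL4 and 10.67 in untreated cells (2.69-fold higher). These genes are near-identical copies whose probe sets can read each other's transcripts, so the 4 values are not independent. MTF1 was at 7.30 with IL4 and 6.96 in untreated cells, a difference of 0.34. Whether zinc in the cells differed was not measured.

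The sodium, proton, chloride and bicarbonate class and the phosphate and sulfate class, of 3 and 6 genes, held 3 of the 11 higher genes. They held 0 of the lower ones. Of all genes of that level, 5.46% were higher and 6.35% lower, and classes this small would often hold 0 lower genes at that share. Of 3 carriers of sodium, chloride or bicarbonate, SLC12A7 (KCC4), which moves potassium and chloride out of the cell, was at 9.79 with IL4 and 9.08 in untreated cells (1.64-fold higher). SLC4A7, a sodium bicarbonate carrier, was at 7.81 with IL4 and 7.15 in untreated cells (1.58-fold higher). SLC12A2 (NKCC1), which brings sodium, potassium and chloride in, was at 7.34 with IL4 and 7.42 in untreated cells. Its other probe set, with a mean of 6.94, had a difference of 0.34, so the sign for SLC12A2 differed between probe sets. Of 6 phosphate and sulfate carriers, 5 had a difference above 0, with a median of 0.20, and SLC26A2 was the 1 past 1.5-fold. SLC20A1 (PiT1), a sodium phosphate carrier, was at 11.22 with IL4 and 11.07 in untreated cells. SLC34A2, the phosphate carrier of alveolar type II cells, was at 8.23 with IL4 and 8.29 in untreated cells, so this lung epithelial carrier differed little.

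Among sugar carriers besides SLC2A6, SLC5A3, which takes up myo-inositol with sodium, was at 10.13 with IL4 and 9.57 in untreated cells (1.47-fold). Its further probe set of that level had a difference of 0.74, and with its probe sets averaged, or after loess, quantile or centring adjustment, SLC5A3 passed 1.5-fold, which made 2 higher sugar carriers in place of 1. In the main setting 1 of the 6 (16.7%) was higher and 0 lower, against 5.46% and 6.35% of all genes of that level. SLC2A1 (GLUT1), the main glucose carrier of many cells, was at 8.90 with IL4 and 8.83 in untreated cells. SLC37A4, which brings glucose 6-phosphate into the endoplasmic reticulum, was at 7.53 with IL4 and 7.74 in untreated cells. The median of the 6 sugar and polyol carriers was -0.017 (0.046 after centring), with 3 on each side of 0, and it was 0.56 over the 3 genes left without probe sets that may bind several transcripts. Arrestin-like ARRDC4, a relative of the glucose carrier inhibitor TXNIP, was at 7.52 with IL4 and 6.75 in untreated cells (1.71-fold higher), while TXNIP itself was at 10.22 with IL4 and 10.54 in untreated cells.

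Of 4 carboxylate carriers only SLC16A14 moved past 1.5-fold. All genes of that level were higher in 5.46% of cases and lower in 6.35%. SLC16A7 (MCT2), which carries pyruvate and lactate, SLC16A4 and the citrate carrier SLC25A1 had differences between 0.026 and 0.066. SLC22A4, a carrier of ergothioneine and organic cations, was at 8.19 with IL4 and 7.23 in untreated cells (1.94-fold higher). The carnitine carrier SLC22A5, the next protein-coding gene on chromosome 5, was at 7.68 with IL4 and 7.38 in untreated cells, so the neighbours lay on the same side of 0 by unequal amounts. SLC27A2, which imports and activates very long chain fatty acids, was at 7.59 with IL4 and 8.28 in untreated cells (1.61-fold lower). SLC10A3, an orphan of the bile acid family, was at 7.35 with IL4 and 6.76 in untreated cells, a difference of 0.58 just under 1.5-fold. None of the 6 vitamin and choline carriers reached 1.5-fold. They ran from -0.24 for SLC19A2, the thiamine carrier, to 0.32 for SLC52A2, a riboflavin carrier.

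The class of nucleotide sugar and sulfate donor carriers held 12 genes, all of the Golgi or endoplasmic reticulum, among them SLC35B1, which carries ATP. Its median was -0.16, with 7 below 0 and 4 above, a share below 0 close to the 58.7% of all genes of that level. SLC35A1, which brings CMP-sialic acid into the Golgi for sialylation, was at 8.50 with IL4 and 9.16 in untreated cells (1.58-fold lower). SLC35B3, for the sulfate donor PAPS, and SLC35D2, for UDP-sugars, had differences of -0.39 and -0.37. SLC35E1, of the same family, had the highest, at 8.76 with IL4 and 8.35 in untreated cells. Its 5 further probe sets of that level brought its average down to 0.17.

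Carriers of nucleotides and cofactors of the SLC25 family numbered 12, of which SLC25A17 is placed in peroxisomes and the other 11 in mitochondria, with 1 higher, 1 lower and a median of 0.052. SLC25A33 and SLC25A36 both carry pyrimidine nucleotides and differed in opposite directions. SLC25A33 was at 8.34 with IL4 and 7.69 in untreated cells (1.57-fold higher), and SLC25A36 was at 8.85 with IL4 and 9.35 in untreated cells, with further probe sets at -0.47 and -0.50. The glutathione carriers SLC25A40 and SLC25A39 were likewise unalike, since SLC25A39 was at 7.83 with IL4 and 7.72 in untreated cells. SLC25A3 and SLC25A5, the SLC genes with the highest means, hardly differed in their chosen probe sets. SLC25A5 (ANT2), which exchanges ADP for ATP, was at 11.97 with IL4 and 12.03 in untreated cells, and the phosphate carrier SLC25A3 was at 12.36 with IL4 and 12.28 in untreated cells. A further probe set of SLC25A3, with a mean of 7.18, had a difference of -0.31. Of all 23 genes of the SLC25 family, 15 had a difference above 0 and 8 below, with a median of 0.078. Among all genes of that level, 40.7% were above 0 and 58.7% below, with a median of -0.063. At 1.5-fold, 5.46% of them were higher and 6.35% lower, against 8.33% each of the 12 nucleotide and cofactor carriers.

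**Figure D3:**
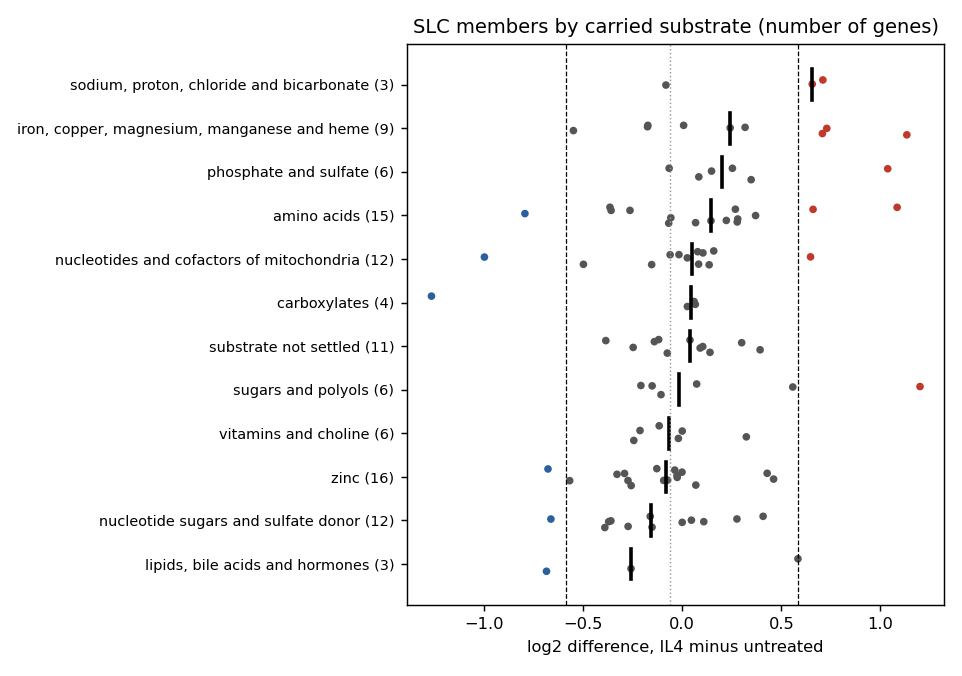
Log2 difference, IL4 minus untreated (x axis), of each SLC gene, 1 point per gene, by the substrate it carries (y axis, number of genes in brackets; classes of 3 or more). Thick bars are class medians, dashed lines mark 1.5-fold and the dotted line is the median of all genes of that level, -0.063. Red points are at least 1.5-fold higher, blue points at least 1.5-fold lower. Class medians run from 0.66 for sodium, proton, chloride and bicarbonate carriers (3 genes) to -0.26 for lipids, bile acids and hormones (3 genes). This lipid class holds SLC27A2, the orphan SLC10A3 and SLC33A1, a carrier of acetyl-CoA whose value is the median. Where other settings moved these medians, they lay between 0.057 and 0.38 for the ion carriers and between -0.47 and 0 for the lipid class.

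By location, 8 of the 11 higher genes and 3 of the 6 lower ones were assigned to the plasma membrane, which held 45 of the 121 genes and had a median of 0.066. These were 17.8% and 6.67% of the plasma membrane genes, against 5.46% higher and 6.35% lower of all genes of that level. The 21 mitochondrial genes had a median of 0.083 with 15 above 0, and the 15 genes grouped as intracellular had -0.13 with 11 below 0. Of all genes of that level, 40.7% lay above 0 and 58.7% below, with a median of -0.063. The intracellular group is mixed, since it holds SLC30A9, a zinc carrier of mitochondria, and the lysosomal SLC2A6. It also shares SLC30A6, SLC30A7, SLC39A9 and other genes with the zinc class, so for those genes it repeats the zinc values. Another 11 of the 121 genes were classed as having no settled substrate, and 0 of them passed 1.5-fold. They ran from SLC25A43 at 8.43 with IL4 and 8.81 in untreated cells to SLC35G2 at 9.06 with IL4 and 8.66 in untreated cells. Genes placed by family only were counted in other classes, among them SLC16A14, which was lower, and the orphan SLC10A3. The count thus depends on how the classes were filled. A further 12 were not on the list of substrates, and 0 of them passed 1.5-fold either. They are 8 newly named genes, with differences between -0.38 (SLC71A1, formerly MFSD14A) and 0.33 (SLC35H1, formerly SLC35C2), and 4 that are no carriers by name, with differences between -0.42 (SLC67A1-AS) and 0.18 (SLC4A1AP). One of these, SLC7A6OS, lies next to SLC7A6 on chromosome 16 and had a difference of 0.042, against 1.08 for SLC7A6. At the limit of the level, SLC25A28, SLC67A1-AS and SLC10A3 were just inside with means of 7.02, 7.04 and 7.05, and SLC39A5, SLC45A4 and SLC12A4 just outside with 6.99, 6.95 and 6.95.

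Where a gene had further probe sets, these gave a second reading on the same arrays, which covers disagreement between probes and not the spread between cultures. A further probe set of that level was at hand for 31 of the 121 genes and had the same sign in 26. The differences of the second and the chosen probe set differed from each other with a standard deviation of 0.20, against 0.17 over 2496 genes of that level. Of the 17 changed genes, 9 had further probe sets, and in all 9 every further probe set had the same sign. SLC26A2 had 1.03 and 1.07, SLC7A6 had 1.45 and 1.24, and SLC38A2 had -0.85 and -0.93, so these 3 genes passed 1.5-fold in each probe set. All probe sets of SLC7A6 and SLC38A2 are of the kinds that may bind several transcripts. Without those kinds, 0 of the 9 amino acid carriers left were higher. SLC30A6 was weaker, with a further probe set of that level at -0.19, and SLC25A40 had a dimmer one at -0.31. Averaged over all probe sets, SLC7A1, SLC41A2, SLC4A7 and SLC30A6 fell short of 1.5-fold, at 0.46, 0.50, 0.38 and -0.38. The other 8 changed genes had 1 probe set.

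**Figure D4:**
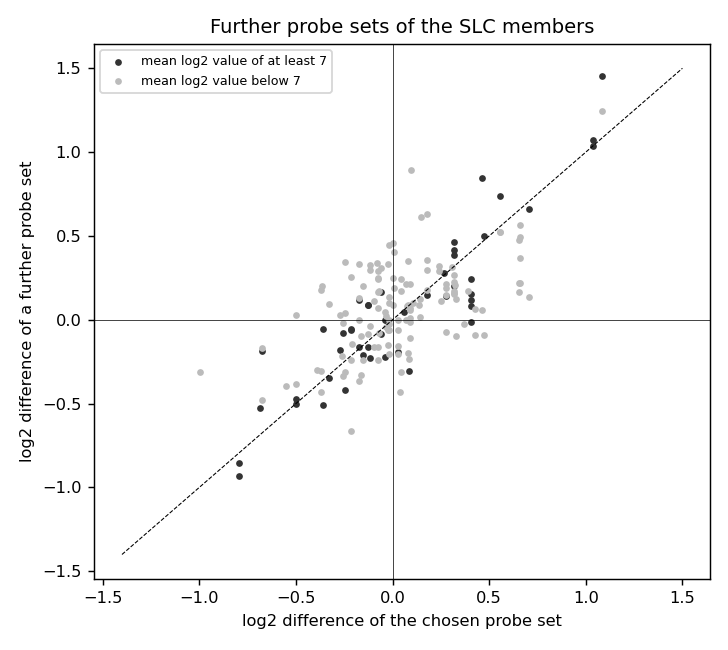
Log2 difference, IL4 minus untreated, of each further probe set of an SLC gene (y axis) against that of the probe set chosen for the gene (x axis). Black points are further probe sets with a mean of at least 7, grey points dimmer ones, and the dashed line marks equal differences. Of the 17 changed genes, 6 have black points, which lie on the same side of 0 as the chosen probe set. In 4 of these 6, the brightest further probe set also passed 1.5-fold in that direction.

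Other transporters and the regulators were set beside the SLC genes. Of 14 genes of the ABC family of that level, most of them pumps that split ATP to move substrates, 0 passed 1.5-fold in either direction, and their median was -0.14. ABCE1, ABCF1, ABCF2 and ABCF3 are among them by name but act in translation and move no substrate. Of 30 genes with symbols of the ion and lipid ATPases, among them the non-coding ATP6AP1-DT, 2 were higher and 1 lower, and the median was 0.094. ATP6V0A2, a subunit of the vacuolar proton pump, was at 8.08 with IL4 and 7.16 in untreated cells, ATP9A at 8.45 with IL4 and 7.77 in untreated cells, and ATP9B at 8.59 with IL4 and 9.46 in untreated cells. Among 30 measured partners and regulators of carriers, 6 were higher and 0 lower, and the median was 0.17. Of all genes with a mean of at least 7, 5.46% were higher and 6.35% lower, and 4 of the 6 are the metallothioneins, whose readings are not independent. Besides the metallothioneins and ARRDC4, the sixth was NEDD4L, a ubiquitin ligase that removes carriers and channels from the cell surface, at 9.06 with IL4 and 7.71 in untreated cells (2.56-fold higher).

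Markers of the labelled cells were present. Of 12 lung epithelial markers 9 reached the level of 7, and their log2 values ran from 6.13 to 11.84 with IL4 and from 6.29 to 11.80 in untreated cells, with sums of 113.4 with IL4 and 113.5 in untreated cells. The surfactant genes SFTPB and SFTPC and NAPSA lay below 7 on both arrays. CDH1 was higher, at 10.92 with IL4 and 10.18 in untreated cells, while NKX2-1 was lower, at 6.91 with IL4 and 7.88 in untreated cells, and ELF3 was lower, at 6.89 with IL4 and 8.25 in untreated cells. Of 10 measured leukocyte markers 1 reached 7, LCP1 at 7.54 with IL4 and 6.54 in untreated cells, and the leukocyte antigen PTPRC was at 2.37 with IL4 and 2.50 in untreated cells, where the median over all probe sets was 5.03. Leukocyte markers summed to 50.2 with IL4 and 49.3 in untreated cells. Fibroblast markers summed to 52.0 with IL4 and 50.4 in untreated cells, with 1 of 10 at 7 or more, COL1A1, and COL3A1 at 4.45 with IL4 and 3.67 in untreated cells. Endothelial markers summed to 38.4 with IL4 and 37.2 in untreated cells, with 0 of 8 at 7 or more and their largest differences in KDR (0.44) and ESAM (0.31). The part of these marker differences in the SLC results was not tested.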

How the data were processed

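H2228 cells given IL4 and untreated H2228 cells were each measured on 1 Affymetrix array. The log2 expression values, 1 per probe set, are as deposited by the authors. In the submitters' processing notes RMA is named, with no version, a method that corrects background, equalizes array distributions and summarizes probes, whereas GCOS is the software named in the published methods. Under RMA a shift shared by most genes would be removed. Array medians were 5.04 with IL4 and 5.00 in untreated cells, and the number of arrays limits the precision.

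Of 54675 probe sets, 41097 named 1 gene, 1801 several and 11777 none. Symbols were updated by gene number to RefSeq GRCh38.p14 for 41043. Differences were IL4 minus untreated, and folds are powers of 2 of them. Substrates and locations were assigned from general knowledge. Named were genes past 1.5-fold, the extremes of each class of 3 or more, the 6 highest means, genes at the limit of 7, genes with discordant probe sets and changed genes of comparison lists, plus related carriers added after their values were seen. The SLC genes, lists and rules were chosen with earlier results of these data known. Alternatives changed the fold level, the level of 7, the probe sets and the normalization. The counting was tested on simulated data. Python 3.11.15, numpy 2.4.6, pandas 2.3.3, statsmodels 0.14.6 and matplotlib 3.10.9 were used. Genes without a probe set of their own, such as SLC16A1 and SLC16A3, were not analysed here.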

Additional observations from a re-analysis of the deposited data

How the results depend on the processing

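No paired analysis was possible because each condition had 1 array, so leaving out a replicate was not possible either. The 11 higher and 6 lower SLC genes became 29 and 23 at 1.2-fold, 4 and 1 at 2-fold, and 5 and 2 among the 63 genes with a mean of at least 8. These were 24% and 19%, 3.31% and 0.826%, and 7.94% and 3.17% of the SLC genes. Of all genes under the same settings, 15.3% were higher and 23.8% lower at 1.2-fold. The shares were 2.15% and 1.14% at 2-fold, and 5.76% and 5.39% with a mean of at least 8. Without probe sets that may bind several transcripts (_x_at and _s_at), 8 of 89 genes were higher and 3 lower. Of all genes under that setting, 5.71% were higher and 7.07% lower. Class medians were then -0.057 for amino acids (9 genes), 0.56 for sugars (3 genes) and -0.26 for zinc (11 genes). They were 0.31 for sodium, proton, chloride and bicarbonate (2 genes) and -0.47 for the lipid class (2 genes). With a mean of at least 6, medians were 0.14 for sodium, proton, chloride and bicarbonate (11 genes) and -0.064 for the lipid class (8 genes). With no lower limit they were 0.057 (29 genes) and 0 (15 genes). Averaged over all probe sets, the median for sodium, proton, chloride and bicarbonate was 0.38. Loess, quantile and centring adjustments each gave 13 higher and 6 lower genes, with 6.48%, 6.03% and 6.57% of all genes of that level higher and 5.04%, 5.78% and 4.95% lower. Leaving out the 4 genes that are no carriers by name, an alternative chosen after seeing the data, left 11 higher and 6 lower of 117. Averaging over the probe sets at 7 or more took SLC30A1 past 1.5-fold (0.65) and SLC30A6 below it (-0.43). The cause was not tested. With 1 array per condition, the spread between cultures stayed unmeasured.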

Other observations

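Among the 236 SLC genes with a mean below 7, the median difference was 0.032, with 3 genes (1.27%) past 1.5-fold in the higher direction and 3 (1.27%) in the lower. Over all 19775 genes these shares were 3.21% and 4.39%. That set also holds the 7249 genes with a mean of at least 7, where the shares were 5.46% and 6.35%. It is thus not a like set, and the shares over dimmer genes alone were not computed. The 6 SLC genes below a mean of 7 were named after their values were seen. SLC20A2 (PiT2), a sodium phosphate carrier, was at 7.30 with IL4 and 6.18 in untreated cells, a difference of 1.12, and its further probe sets had differences of 1.84 and 0.15. SLC20A1, which carries the same substrate, had a difference of 0.15, with a dimmer probe set at 0.61 and a mean of 0.38 over its probe sets. SLC26A6, an anion exchanger of the family of SLC26A2, was at 5.17 with IL4 and 4.56 in untreated cells, and SLC35E4 at 5.87 with IL4 and 5.27 in untreated cells. On the lower side, SLC44A5 was at 6.49 with IL4 and 7.14 in untreated cells, SLC12A8 at 6.01 with IL4 and 6.60 in untreated cells, and SLC17A1 at 3.06 with IL4 and 3.72 in untreated cells. Apart from SLC20A2 and SLC44A5, these genes lay below 7 on both arrays, and the means of SLC17A1 and SLC26A6 were below the median over all probe sets, 5.03.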
